A study of Mus musculus with 12 samples.

Results

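Notch signalling decides whether a splenic B cell joins the marginal zone, the rim of the spleen's white pulp where B cells meet blood-borne antigen, or the follicles. Ligands on neighbouring cells bind NOTCH receptors, the receptor is cleaved, and its freed intracellular domain enters the nucleus, where it joins the DNA-binding factor RBPJ and a Mastermind coactivator to switch on targets such as Hes and Deltex genes. In B cells NOTCH2 is the receptor that marginal zone B cells depend on, and high CD1d, CD9 and complement receptor CD21 (Cr2) mark those cells. The 10 genes described here are the receptors Notch1 and Notch2, the nuclear partners Rbpj and Maml1, the targets Dtx1, Hes1 and Hes5, and the marginal zone genes Cd1d1, Cd9 and Myof. They were chosen by name, as every array probe whose transcript accession belongs to one of them. This gave 14 probes, and 9 of the 10 genes had a probe bright enough to test, among 12295 named genes and 22981 features (named genes plus probes without a name) tested in all.

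The samples were splenic B cells of mice with the genotype B1-8hi:Sub1fl/fl (control) or B1-8hi:Sub1fl/fl-Mb1-Cre (knockout), in which a Cre driven from the B lineage gene Mb1 (Cd79a) acts on the floxed Sub1 gene. All 4 groups therefore carried the B1-8hi antigen receptor allele and the floxed Sub1 alleles, and Cre alone set the genotypes apart, so that Cre and Sub1 loss cannot be told apart. Sub1 encodes the chromatin protein PC4. Cells were taken unstimulated (resting, called naïve in the labels) or once cultured for 72 h in medium holding IL-2 (100 U/mL), CD40 ligand (0.2 ng/mL), the antigen NP-ficoll (0.01 ng/mL), IL-5 (1.5 ng/mL) and IL-4 (5 ng/mL), and the labels do not give the animals' age or sex or say whether the samples of a group came from separate animals. The labels name no group cultured without these additions, so that their effect and that of 72 h in culture cannot be told apart. Stimulation below means both together. Each group had 3 arrays, replicates 1 and 2 on the first slide and replicate 3 on the second, so the p-values reflect the spread among these arrays. The precision is limited by having 3 arrays a group.

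A level here is the log2 intensity of a probe minus the 75th percentile of its array, so that 0 is the brightness of that percentile, and a level can be compared between arrays but not between genes. The targeted gene Sub1 read 6.03 ± 0.04 (SD, n = 3) in resting control and 5.65 ± 0.24 in resting knockout cells (log2 difference -0.38, adjusted p = 0.268), and 8.05 ± 0.22 against 6.84 ± 0.11 after stimulation (-1.21, adjusted p = 0.0114). Cd79a, the gene that drives Cre, differed by -1.55 in resting (adjusted p = 0.0948) and by -1.09 in stimulated cells (adjusted p = 0.0343). Whether the Sub1 probe lies in the deleted part is not given in the sources used here. Between 24.3% and 76.8% of spots were well above background per array. On stimulated replicates 1 to 3 the shares were 36.6%, 24.3% and 60.1% in control and 64.5%, 42.6% and 76.8% in knockout cells. At rest they were 41.8%, 52.9% and 64.1% in control and 40.5%, 48.1% and 76.6% in knockout cells. Counts of arrays that detect a gene thus depend on the array as well. Control replicate 1 alone carried clear signal of the Y-linked gene Ddx3y, in both states. The summed linear level of 5 B cell markers ranged from 826 to 948 on resting control and from 624 to 739 on resting knockout arrays, and all 5 markers were detected on at least 11 arrays. The summed level of 10 macrophage and monocyte markers ranged from 34.1 to 53.7 and from 70.3 to 100 on the same arrays. In such bulk samples, fewer cells of a type and less RNA per cell cannot be told apart.

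Notch2 was high in resting cells and low after stimulation in both genotypes. It read 5.01, 4.67 and 4.47 in resting control cells and 4.27, 4.30 and 3.93 in resting knockout cells. After stimulation it read 2.37, 1.91 and 2.50 in control cells and 2.59, 2.23 and 1.87 in knockout cells. Every stimulated array lay below every resting array, and the stimulated genotypes overlapped. Notch2 fell by 2.46 on the log2 scale in control cells (SE 0.25, 5.50-fold lower, adjusted p = 5.73e-05) and fell by 1.94 in knockout cells (SE 0.25, 3.84-fold lower, adjusted p = 0.000583). A second Notch2 probe was well above background on 3 of 12 arrays only and was not tested. Macrophages also carry Notch2, and the macrophage and monocyte sum was lower after stimulation too, at 10.9 to 26.4 in control and 26.9 to 34.7 in knockout cells. Its part in the result was not tested.

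Notch1, the receptor better known from T cell development, lay near the 75th percentile throughout and did not follow Notch2. In control cells it read -0.45, 0.04 and -0.42 at rest and -0.68, -0.85 and -0.53 after stimulation. In knockout cells it read 0.30, 0.04 and -0.31 at rest and 0.12, 0.08 and 0.15 after stimulation. The stimulated knockout arrays all lay above the stimulated control arrays, of which 2 of 3 were well above background. Neither stimulation change passed the test (-0.41, adjusted p = 0.194 in control and 0.10, adjusted p = 0.833 in knockout cells). A dimmer Notch1 probe was above background on 7 of 12 arrays and on none of the stimulated control arrays, and neither of its stimulation changes passed (adjusted p over every probe = 0.972 and 0.728).

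Among the nuclear partners, the test called Rbpj higher with stimulation in knockout cells and Maml1 lower in control cells. Neither gene's change differed between the genotypes by the test. The difference was 0.91 for Rbpj (adjusted p = 0.526) and 0.10 for Maml1 (adjusted p = 0.982). RBPJ is the DNA-binding hub of the pathway and represses its targets when no receptor domain is bound. Its probe read 1.47, 1.25 and 0.98 in resting control cells, 0.64, 1.00 and 0.67 in resting knockout cells, 2.26, 1.76 and 1.17 in stimulated control cells and 2.45, 2.48 and 1.60 in stimulated knockout cells. The stimulated knockout arrays all lay above the resting ones, whereas the control groups overlapped. Rbpj rose by 1.41 in knockout cells (SE 0.32, 2.65-fold, adjusted p = 0.0126), and its change in control cells was 0.50 (SE 0.32, adjusted p = 0.309). The second Rbpj probe gave 1.28 in knockout cells (adjusted p over every probe = 0.039) and 0.65 in control cells (0.243). The call in knockout cells did not pass without resting knockout replicate 1 (1.34, adjusted p = 0.0621), stimulated knockout replicate 1 (1.27, adjusted p = 0.0594) or stimulated knockout replicate 2 (1.25, adjusted p = 0.0906).

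MAML1 is the Mastermind coactivator that locks the receptor domain onto RBPJ. Maml1 read 2.11, 1.89 and 1.89 in resting control cells, 1.47, 1.52 and 1.78 in resting knockout cells, 1.48, 0.86 and 1.32 in stimulated control cells and 1.09, 0.79 and 0.97 in stimulated knockout cells. It fell by 0.74 in control cells (SE 0.21, 1.67-fold lower, adjusted p = 0.0204), and the change in knockout cells was -0.64 (adjusted p = 0.0599). The call in control cells did not pass without control resting replicate 1 (adjusted p = 0.103), control resting replicate 2 (0.0532), control stimulated replicate 2 (0.0564) or knockout stimulated replicate 2 (0.0529). In knockout cells Maml1 passed under 9 of 27 alternatives, such as quantile normalization (-0.82, adjusted p = 0.00152). These 9 include leaving out control stimulated replicate 1 (adjusted p = 0.0472) or replicate 2 (0.0292). Those arrays belong to neither group compared but enter the fit across all 4 groups.

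Dtx1, a Deltex ubiquitin ligase gene and a Notch target known in marginal zone B cells, had the largest log2 drop of the tested members in control cells. It read 6.75, 6.21 and 5.78 in resting control cells and 4.83, 5.01 and 4.73 in resting knockout cells. After stimulation it read 3.60, 3.15 and 3.51 in control cells and 3.69, 3.50 and 3.20 in knockout cells. The order of the group means was thus resting control, resting knockout and then both stimulated groups, and the last 2 did not differ beyond their spread. Dtx1 fell by 2.83 in control cells (SE 0.26, 7.10-fold lower, adjusted p = 3.19e-05) and fell by 1.39 in knockout cells (SE 0.26, 2.63-fold lower, adjusted p = 0.00455). The drop in knockout cells was -1.33 on the first slide alone, where it did not pass (adjusted p = 0.0573), and -1.53 on the second.

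**Figure D1:**
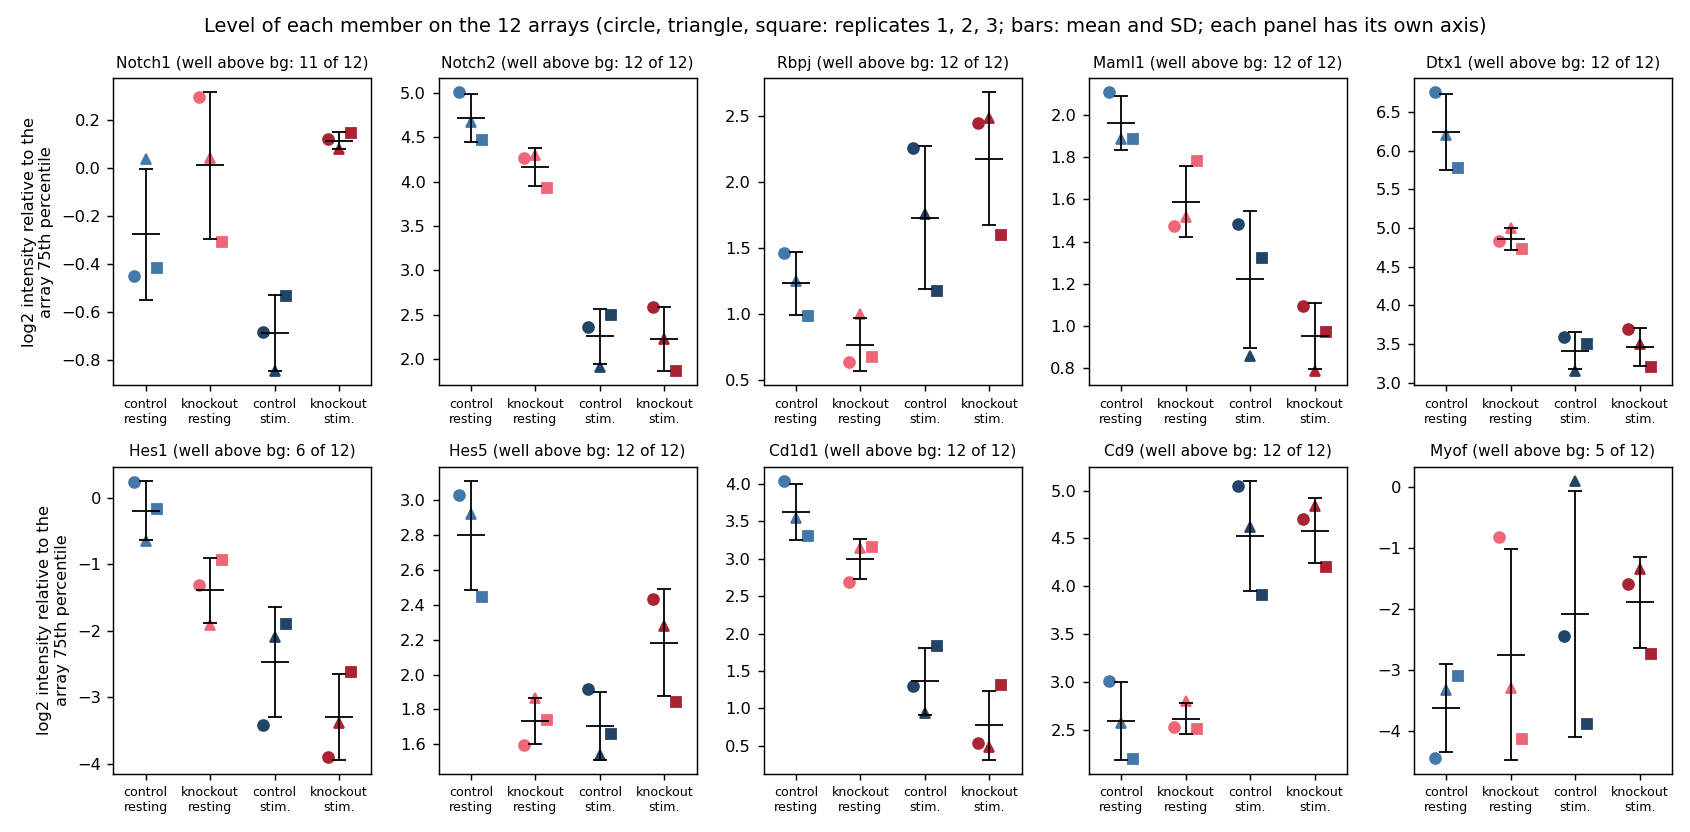
Level of the brightest probe of each of the 10 genes on the 12 arrays, as log2 intensity relative to the array's 75th percentile, in the 4 groups (circle, triangle and square: replicates 1, 2 and 3; bars: mean and SD). Notch2, Dtx1 and Cd1d1 are lower on every stimulated than on every resting array and Cd9 is higher, while Hes5 stands highest on the 3 resting control arrays, from 2.44 to 3.03.

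Hes5 and Hes1 encode basic helix-loop-helix repressors that RBPJ-bound Notch switches on. The sites below show where the promoters of the members carry TGGGAA, the core that RBPJ binds, or its reverse complement TTCCCA. They come from the 250 bases before each start site in RefSeq on GRCm38.p6, are written 5′ to 3′ along the gene with capitals for the core, and belong to Hes5 (chr4:154960685-154960714 and chr4:154960829-154960858, plus strand), Rbpj (chr5:53590185-53590214 and chr5:53590269-53590298, plus strand) and Cd9 (chr6:125494954-125494983, minus strand).
Hes5, far site: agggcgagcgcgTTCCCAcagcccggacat
Hes5, near site: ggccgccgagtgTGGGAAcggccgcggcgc
Rbpj, far site: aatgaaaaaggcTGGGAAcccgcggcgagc
Rbpj, near site: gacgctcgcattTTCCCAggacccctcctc
Cd9: accccgagacggTGGGAAgaaggaagatgg

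In the Hes5 promoter window the core lay 226 to 221 bases before the start on the minus strand and 82 to 77 bases before it on the plus strand. The Rbpj window held it 149 to 144 bases before the start on the plus strand and 65 to 60 on the minus strand, and the Cd9 window 211 to 206 bases before the start on the plus strand. The promoter table matched 8 of the 10 members, with 9 windows since Rbpj has a second start site. The Hes5, Rbpj and Maml1 windows and most of the Dtx1 window lie inside the RefSeq span of their genes, which opens at an earlier start. The windows of Notch1, Notch2, Dtx1, Maml1 and Myof held no TGGGAA on either strand, which says only that these letters are absent from those 250 bases. The core was present in 21.6% of the table's 32851 promoters of that length, and at least 2 matches in 2.77%. Of the sites that HES proteins bind, CACGTG was in none of the member windows and in 6.02% of all promoters. CACNAG, the other such site, was in those of Notch1, Notch2, Dtx1 and Myof and in 36.7% of all. A match describes letters and shows no binding.

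Hes5 read 3.03, 2.92 and 2.44 in resting control cells, above all other arrays. It read 1.60, 1.87 and 1.74 in resting knockout cells, 1.92, 1.54 and 1.66 in stimulated control cells and 2.43, 2.28 and 1.84 in stimulated knockout cells. Hes5 fell by 1.09 with stimulation in control cells (SE 0.23, 2.13-fold lower, adjusted p = 0.00435). In knockout cells the difference was 0.45 (SE 0.23, adjusted p = 0.238), with overlapping groups.

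Hes1 was bright enough only in resting control cells, and it entered the test through that group, so that its differences from the others were favoured by the filter. It read 0.24, -0.65 and -0.17 there, all well above background. It read -1.32, -1.91 and -0.94 in resting knockout cells, -3.42, -2.09 and -1.91 in stimulated control cells and -3.90, -3.39 and -2.62 in stimulated knockout cells, where in each group only replicate 3, on the second slide, was well above background. On that slide, where all 4 arrays measured it, the stimulated arrays lay 1.74 (control) and 1.68 (knockout) below the resting ones. The fitted stimulation changes of Hes1 were -2.28 in control (adjusted p = 0.00385) and -1.91 in knockout cells (adjusted p = 0.0174), and since most of the dim arrays lay at background they are not measured sizes. The first call did not pass without both control arrays numbered 1 (-1.59, adjusted p = 0.0537). The second did not pass when resting knockout replicate 1 (adjusted p = 0.0715) or 3 (0.062), or stimulated knockout replicate 1 (0.0807) or 2 (0.0894), was left out.

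Of the marginal zone genes, Cd1d1 fell and Cd9 rose with stimulation. Cd1d1 encodes CD1d, which presents lipids to natural killer T cells. It read 4.04, 3.54 and 3.31 in resting control cells, 2.69, 3.14 and 3.16 in resting knockout cells, 1.31, 0.95 and 1.84 in stimulated control cells and 0.54, 0.48 and 1.31 in stimulated knockout cells. Every stimulated array lay below every resting array. Cd1d1 fell by 2.26 in control cells (SE 0.31, 4.80-fold lower, adjusted p = 0.000371) and fell by 2.22 in knockout cells (SE 0.31, 4.66-fold lower, adjusted p = 0.000937). Its second probe fell by 1.25 in control cells (adjusted p over every probe = 0.00778), while in knockout cells it gave -0.79 (0.0943). Mice carry a closely similar neighbouring gene, Cd1d2, and whether these probes tell the 2 apart was not tested.

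CD9 is a tetraspanin of the cell surface, found on marginal zone and B-1 cells and also on plasma cells and platelets. Cd9 read 3.01, 2.57 and 2.20 in resting control cells, 2.54, 2.81 and 2.51 in resting knockout cells, 5.05, 4.62 and 3.91 in stimulated control cells and 4.70, 4.84 and 4.20 in stimulated knockout cells. The groups of each genotype lay wholly apart, and the genotypes overlapped in both states. Cd9 rose by 1.93 in control cells (SE 0.32, 3.81-fold, adjusted p = 0.00111) and by 1.96 in knockout cells (SE 0.32, 3.90-fold, adjusted p = 0.00203). The summed level of 6 plasma cell markers went from 89.6 to 109 at rest to 397 to 633 after stimulation in control cells, and from 159 to 218 to 196 to 258 in knockout cells, and their part in the Cd9 result was not tested. The summed level of 5 platelet markers was lower after stimulation, at 0.709 to 2.3 against 5.3 to 11.8 in control cells. Myof, which encodes the membrane repair protein myoferlin, was well above background on 5 of 12 arrays, at least 1 in each group, and was not tested.

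Stimulation thus changed 7 of the 9 tested members in control cells by the test, with 6 lower (Dtx1, Notch2, Cd1d1, Hes5, Maml1 and the dim Hes1) and 1 higher (Cd9), where 13.1% of all features were called lower and 14.7% higher. In knockout cells it changed 6 members, with 4 lower (Cd1d1, Notch2, Dtx1 and the dim Hes1) and 2 higher (Cd9 and Rbpj), where 5.2% of all features were called lower and 10.9% higher. Without Hes1, which the filter favoured, 5 of 8 members were lower in control and 3 of 8 in knockout cells. Without Hes1 the median change of the 8 members was -0.92 in control and -0.27 in knockout cells (-1.09 and -0.64 with it), against 0.04 and 0.10 for all features. The summed level of the 5 B cell markers went from 826 to 948 in resting to 475 to 669 in stimulated control cells and from 624 to 739 to 520 to 631 in knockout cells, and 4 of the 5 markers were called lower in control cells and 1 in knockout cells. The T cell marker sum (8 genes) was higher, at 55.4 to 68.7 against 14.1 to 17.7 in control and 80.2 to 92.9 against 13.2 to 24.5 in knockout cells, though only 2 of the 8 genes were called higher in either, with 2 called lower in control and 1 in knockout cells. Also higher was the NK cell sum (6 genes), at 35 to 36.5 against 5.28 to 8.86 in control and 218 to 422 against 7.39 to 10.4 in knockout cells. Only 2 of these 6 genes were called higher in control and 3 in knockout cells, with 0 called lower in either. Their median changes were 1.08 and 1.79, against 7.25 and 8.79 for the gene that rose most. The part of these shifts in the members' changes was not tested. With the replicate number as a block Maml1 was called in knockout cells too (adjusted p = 0.0333).

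**Figure D2:**
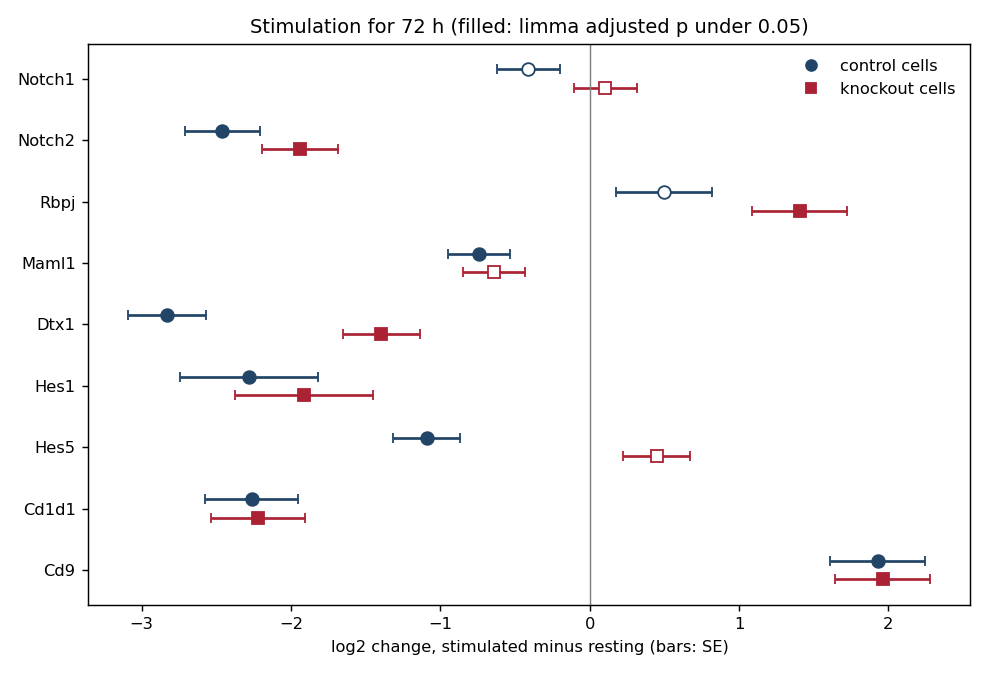
Log2 change with 72 h of stimulation for the 9 tested members (points: change; bars: SE) in control cells (circles) and knockout cells (squares), filled where limma's adjusted p was under 0.05. Notch2, Dtx1 and Cd1d1 lie well below 0, as do the fitted values of Hes1, which was at background on most arrays, and Cd9 above it in both genotypes, while Hes5 lies at -1.09 in control and 0.45 in knockout cells.

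In resting cells, no member passed the test of knockout against control, and Dtx1 and Hes5 showed the smallest p-values among the members. With limma, 3 members (Dtx1, Hes5 and Hes1) had an unadjusted p under 0.05, as had 4534 of the 22981 features, and 0.0131% of all features were called (3 features). Dtx1 lay at 6.25 ± 0.49 (SD, n = 3) in control and 4.86 ± 0.14 in knockout cells, a log2 difference of -1.39 (SE 0.26, 2.62-fold lower, adjusted p = 0.14). The difference was -1.56 on the first slide and -1.05 on the second. Hes5 lay at 2.80 ± 0.31 and 1.74 ± 0.13, a difference of -1.06 (SE 0.23, 2.09-fold lower, adjusted p = 0.158), with -1.24 and -0.70 on the slides.

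For both genes all knockout arrays lay below all control arrays. The same held for Notch2 (-0.55, adjusted p = 0.256), Hes1 (-1.20, adjusted p = 0.232), Maml1 (-0.37, adjusted p = 0.294) and Cd1d1 (-0.63, adjusted p = 0.27), so that 6 of the 9 tested members were placed this way, or 5 of 8 without Hes1, which the filter favoured. Over all features with values on all 6 arrays, 26.9% were placed this way. Rbpj differed by -0.46 (adjusted p = 0.36), Notch1 by 0.29 (adjusted p = 0.385) and Cd9 by 0.03 (adjusted p = 0.959), each with overlapping groups. The second probes of Cd1d1 and Rbpj gave -0.17 and -0.11 and the dim second probe of Notch1 gave 1.43 (SE 0.82, adjusted p over every probe = 0.307), also with overlapping groups. The median over all features was itself -0.21 in this comparison, and relative to it Dtx1 differed by -1.18, Hes5 by -0.85 and Notch2 by -0.34. The higher macrophage and lower B cell marker sums of these same arrays were given above, and their part in these differences was not tested.

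The call for Dtx1 and Hes5 turned on the setting. Dtx1 passed with normexp background correction (-1.31, adjusted p = 0.0323). Both passed when only probes detected on all 12 arrays were tested (adjusted p = 0.0246 for Dtx1 and 0.0433 for Hes5). Both also passed with a trended, robust empirical Bayes fit (0.0114 and 0.035) and with array weights (0.0422 and 0.0481). Over all 27 alternatives the adjusted p of Dtx1 ranged from 0.0114 to 0.518 and that of Hes5 from 0.035 to 0.618, with the change below 0 in each.

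After stimulation, the difference between genotypes in Dtx1 and Notch2 was near 0. Dtx1 differed by 0.04 (95% interval -0.53 to 0.62) and Notch2 by -0.03 (-0.59 to 0.53). No member was called in this comparison, in which 3.46% of all features were (796 with limma, or 1865 with the replicate number as a block). This feature count turned on the setting. It was 0 with only the 2 compared groups fitted, 6 on slide 1 alone and 38 without both control arrays numbered 1. With scaling to spots detected on all arrays it was 2349. In the fit used here 1 member had an unadjusted p under 0.05. That member was Notch1, which lay at -0.69 ± 0.16 in control and 0.12 ± 0.04 in knockout cells, a difference of 0.80 (SE 0.21, 1.74-fold higher, adjusted p = 0.0689, or 0.0545 with the block). Notch1 was the only tested member whose stimulated knockout arrays all lay above the control arrays, as they did for 10.9% of all features. Its dimmer second probe was not well above background on any stimulated control array. The fitted difference of that probe, 0.90 (SE 0.82, adjusted p over every probe = 0.528), is thus not a measured size, and the groups overlapped.

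The other members differed by -0.83 for Hes1, -0.59 for Cd1d1 (0.29 by its second probe), -0.27 for Maml1, 0.06 for Cd9, 0.45 for Rbpj and 0.48 for Hes5, with adjusted p from 0.243 to 0.924. Scaling to the spots detected on all 12 arrays raised the median over all features to 0.39 from -0.02, and with it Notch1 (1.21, adjusted p = 0.0161) and Hes5 (0.88, adjusted p = 0.0182) passed. Relative to that median they differed by 0.82 and 0.50, as under the scaling used here. NK cell markers stood at a summed 218 to 422 on stimulated knockout arrays against 35 to 36.5 on control arrays, and T cell markers at 80.2 to 92.9 against 55.4 to 68.7. Of the 8 tested T cell markers 7 were higher and 1 was called, and of the 6 NK cell markers 3 were called higher. Their part in the Notch1 result was not tested.

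**Figure D3:**
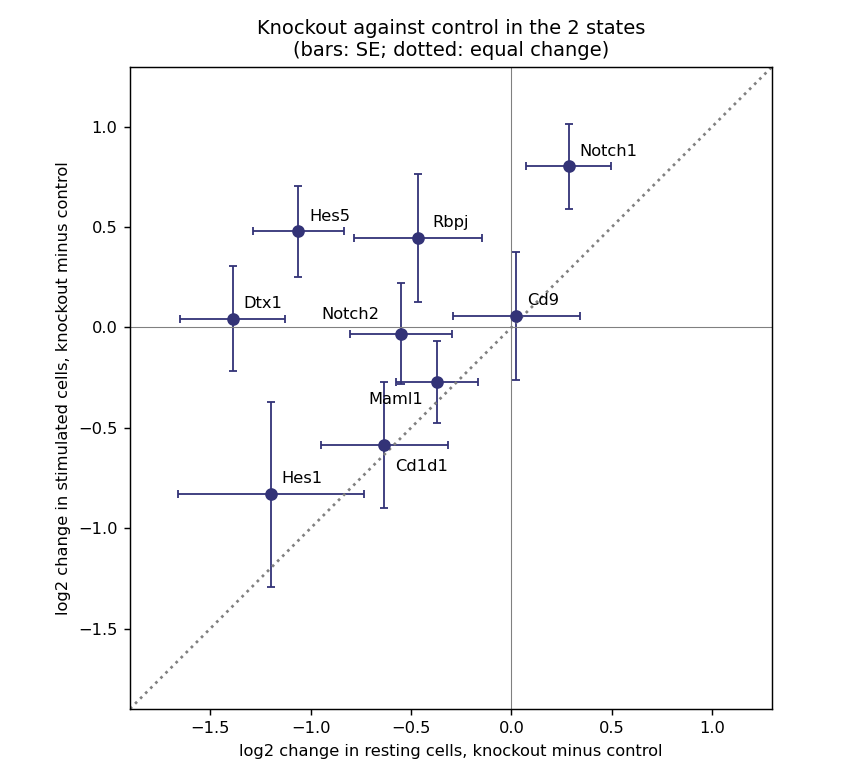
Log2 difference between knockout and control cells in resting cells (horizontal axis) and in stimulated cells (vertical axis) for the 9 tested members, with SE bars and a dotted line of equal difference. Dtx1 and Hes5 lie farthest to the upper left of the line, at -1.39 and -1.06 in resting cells against 0.04 and 0.48 in stimulated cells.

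The difference between these 2 genotype differences was tested as an interaction. It was largest for Hes5 (1.54, SE 0.32, adjusted p = 0.0995) and Dtx1 (1.43, SE 0.37, adjusted p = 0.167), and these 2 members had an unadjusted p under 0.05. No member was called, and 0.144% of all features were (33 with limma). The other 7 interactions lay between 0.03 for Cd9 and 0.91 for Rbpj. On the first slide alone the value was 1.87 for Hes5 and 1.78 for Dtx1, and on the second 0.89 and 0.74. Hes5 passed under 5 alternatives and Dtx1 under 2, and over the alternatives the adjusted p ranged from 0.0118 to 0.648 for Hes5 and from 0.0246 to 0.725 for Dtx1. The stimulation change in control cells, the resting genotype difference and the interaction all use the resting control arrays, on which Dtx1 and Hes5 were highest.

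Over the 12 arrays, Notch2 ran with Dtx1 (Pearson r = 0.96), Cd1d1 (0.94) and Maml1 (0.89), and opposite to Cd9 (-0.89). The points share the 4 groups, and Hes5 followed Notch2 less closely (0.51). Among the other named genes, those most like Notch2 were Fcrla, an Fc receptor-like protein gene of B cells (r = 0.992), Cr2 (0.989) and the glycosyltransferase gene B3gnt5 (0.988). Dtx1 was most like Zfp318 (0.991), a zinc finger gene needed for IgD, the inflammasome gene Nlrc4 (0.987) and the phosphatase gene Ublcp1 (0.985). Cd1d1 was most like Adgre5, which encodes CD97 (0.991), the adaptor gene Hcst (0.990) and the cytokine gene Il16 (0.987). These values describe the 12 arrays, and 12166 genes were compared.

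Beyond the members, the pathway was followed through 55 further Notch genes, of which 52 were on the array and 39 were tested. The ligands Dll1, Dll3, Dll4, Jag1 and Jag2, the receptor Notch3 and the targets Hey1, Hey2, Heyl and Nrarp were too dim to test. With stimulation, 4 of the 39 rose and 5 fell in control cells, where 14.7% of all features were called higher and 13.1% lower. In knockout cells 2 of the 39 rose and 3 fell, where 10.9% of all features were called higher and 5.2% lower, so that these counts were no higher than the share of all features, apart from the 3 lower calls, which were near it. The lower calls in both genotypes included Neurl3 and Maml3, which entered the test through the resting groups, so that the filter favoured them. The medians were -0.25 and -0.11. Between genotypes no further Notch gene was called, where 0.0131% of all features were in resting and 3.46% in stimulated cells. The medians of these genotype differences were -0.27 and -0.18. With the replicate number as a block, Dtx4, another Deltex gene, was called higher in stimulated knockout cells (0.95, adjusted p = 0.036, against 0.066 without the block), among 1865 features called. The block also added Fbxw7, a ubiquitin ligase gene, with stimulation in control cells (0.63, adjusted p = 0.024, against 0.0511), among 7519 features called.

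Of 12 tested genes of the nuclear complex and corepressors, 1 was called higher and 3 lower with stimulation in control cells. Of 11 tested genes of endocytosis and degradation, 1 was called in each direction. Among all features 14.7% were called higher and 13.1% lower, and counts this small do not set a role apart. Neurl3, a Neuralized-type ubiquitin ligase gene, read 1.64 ± 0.23 in resting and -2.53 ± 0.68 in stimulated control cells, where it was not well above background on any array, and was thus at least 10.4-fold lower (adjusted p = 1.45e-05). "At least" takes the lowest detected signal of each array as the dim level. In knockout cells, where 2 of 3 stimulated arrays detected it, Neurl3 fell by 2.84 (adjusted p = 0.000262). Neurl3 entered the test through the resting groups, so that the filter favoured its being called lower after stimulation. Mib1, the Mind bomb ligase that drives ligand endocytosis, rose by 1.96 in control (adjusted p = 0.000728) and by 1.11 in knockout cells (adjusted p = 0.0302). Maml3, a relative of Maml1, entered the test through the resting groups and was detected on 1 of 3 arrays in each stimulated group, so that its fitted changes of -2.36 in control (adjusted p = 0.000553) and -2.30 in knockout cells (adjusted p = 0.00139) are not measured sizes. Cdkn1a, the p21 cell cycle inhibitor gene that Notch and other pathways switch on, rose by 1.81 (adjusted p = 0.000358) and 1.55 (adjusted p = 0.00201).

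Of 17 tested marginal zone genes outside the members, 10 fell and 3 rose with stimulation in control cells, where 13.1% of all features were called lower and 14.7% higher, and the median was -1.48. In knockout cells 6 fell and 2 rose, where 5.2% of all features were called lower and 10.9% higher, and the median was -0.81. Cr2 went from 7.14 ± 0.47 to -0.72 ± 0.72 in control cells (it fell by 7.86, adjusted p = 2.08e-06) and from 5.38 ± 0.14 to -0.61 ± 0.47 in knockout cells (it fell by 5.99, adjusted p = 1.99e-05). S1pr3, a sphingosine phosphate receptor gene, fell by 3.89 in control cells (adjusted p = 0.000171), and the ubiquitin ligase adaptor gene Asb2 fell by 2.95 (adjusted p = 2e-04). Cd36, a scavenger receptor gene, fell by 2.48 (adjusted p = 0.00287), and in knockout cells it fell by 1.91 (adjusted p = 0.0206). In knockout cells Asb2 fell by 1.39 (adjusted p = 0.0273), and Cnr2, a cannabinoid receptor gene, fell by 1.28 (adjusted p = 0.00181). In stimulated control cells Cr2, S1pr3 and Cd36 were well above background on 2 of 3 arrays and Asb2 on 1. The fitted fall of Asb2 in control cells is thus not a measured size.

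Of 10 tested follicular genes, 8 fell and 1 rose in control cells and 7 fell and 1 rose in knockout cells, against the same shares of all features, with medians of -1.16 and -0.92. Fcer2a, which encodes the IgE receptor CD23, fell by 2.67 in control cells (adjusted p = 2.34e-05) and fell by 3.09 in knockout cells (adjusted p = 3.37e-05). Ccr7, a chemokine receptor gene, fell by 2.24 in control cells (adjusted p = 3.55e-05), and Cxcr5, which guides cells to follicles, fell by 1.29 in knockout cells (adjusted p = 0.00113). Il4ra, the receptor gene for the IL-4 in the culture, rose by 2.05 (adjusted p = 0.000275) and by 2.52 (adjusted p = 0.000191).

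Between genotypes at rest, none of the marginal zone or follicular genes was called, where 0.0131% of all features were. The medians were -0.50 and -0.38 against -0.21 for all features. Cr2 differed by -1.76 (SE 0.38, adjusted p = 0.158), and S1pr3 showed a difference of -2.03 (SE 0.48, adjusted p = 0.161). After stimulation, where 3.46% of all features were called, 1 of 17 marginal zone genes was lower in knockout cells. This was Mzb1, a chaperone gene also abundant in plasma cells (-1.46, SE 0.21, adjusted p = 0.0082). Of 6 plasma cell markers, 5 were called lower in the same comparison, and their part in the Mzb1 result was not tested. With the replicate block, 1865 of the 22981 features were called between the stimulated genotypes. Asb2 (1.47, adjusted p = 0.0392, against 0.0593) and Ptk2b, a focal adhesion kinase family gene (-0.72, adjusted p = 0.0479, against 0.183), were then called as well. Asb2 was well above background on 1 of 3 stimulated control arrays, so that its fitted difference is not a measured size. Ptk2b also passed with the block for stimulation in control cells (-0.59, adjusted p = 0.0376, against 0.174), where 7519 features were called. The genes whose call the block changed were named after their values were seen. Of the 10 follicular genes, Fcer2a was lower (-1.01, adjusted p = 0.0421) and Ccr7 higher (1.00, adjusted p = 0.0315) in stimulated knockout cells, without the block. With only the 2 compared groups fitted, 0 features were called, so that Mzb1, Fcer2a and Ccr7 did not pass there.

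**Figure D4:**
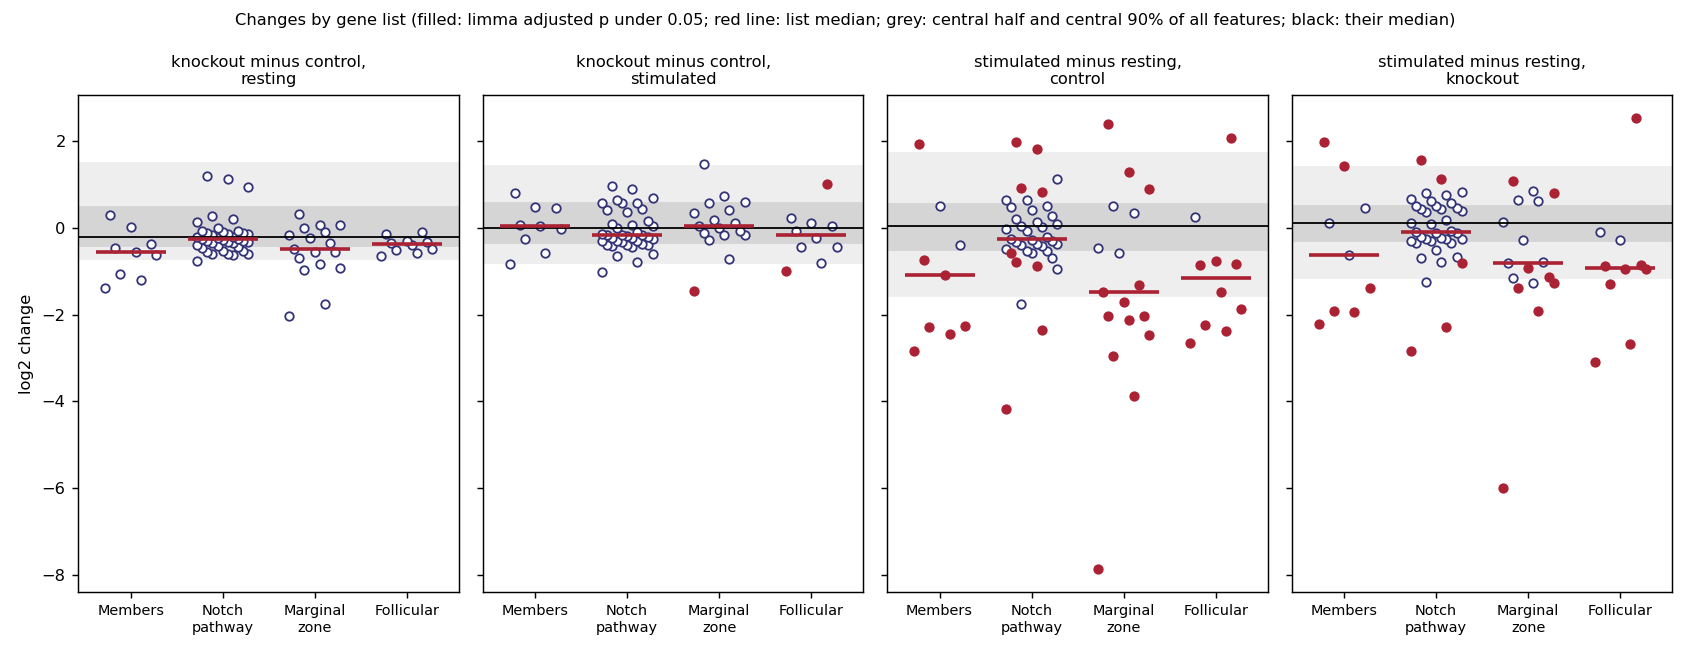
Log2 changes of the 9 tested members and of the tested Notch pathway (39), marginal zone (17) and follicular (10) genes in 4 comparisons, filled where limma's adjusted p was under 0.05, with list medians in red. Grey bands hold the central 50% and 90% of all features and the black line their median. The filled points lie almost wholly in the stimulation comparisons, and most of them below 0 for the marginal zone and follicular genes.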

How the data were processed

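Cy3-labelled RNA of 12 samples was hybridised to Agilent mouse arrays, grouped and numbered by the labels, with slides read from the array identifiers. The deposited values are background-subtracted spot intensities that the authors made with Agilent Feature Extraction, version 10.7.3.1 per the file headers and 9.1 per the submitters' processing notes. The deposited series matrix gave these intensities rounded. Outlier spots were dropped, log2 intensities were set relative to the 75th percentile of the array's non-control spots, and repeated spots were averaged. A probe was tested if all 3 arrays of some group showed it well above background. Each gene was read by its brightest probe, and unnamed probes were features too. Transcript accessions and RefSeq (GRCm38.p6) named 26413 of 55681 probes. The array grid refers to another build, so that no probe coordinates are given.

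limma 3.58.1 in R 4.3.3 fitted 4 group means to the 12 arrays (8 residual degrees of freedom), with Benjamini-Hochberg adjustment over all 22981 features at 0.05. This fit gave each adjusted p printed here unless another setting is named with it. Values over every probe were adjusted over 26296 probes, and those of an alternative came from its own limma fit over the features it tested. The 5 comparisons were repeated under 27 alternatives. Members and gene lists were chosen with earlier results of these data known. Beside the members, the text names up to 4 called genes per list and comparison with the largest change and groups apart, the 3 genes most like Dtx1, Notch2 and Cd1d1, and Sub1 and Cd79a. A follicular gene named by this rule is not reported here. Same-numbered arrays deviated together for stimulated knockout against control (correlations 0.35, 0.33 and 0.48) and for stimulation in control cells (0.42, 0.43 and 0.51). In each, 6 of 6 arrays correlated best with their own number. The labels do not say what a shared number stands for, and replicate 3 of every group also shared the second slide. The fit used here did not include the number. The fit was run on simulated data for stimulated knockout against control only. Those data held independent arrays without slide or replicate effects, so they do not test the fit under such effects.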

Additional observations from a re-analysis of the deposited data

How the results depend on the processing

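The members called by stimulation numbered 5 to 8 in control cells and 4 to 7 in knockout cells over all settings, leaving out single arrays included (6 to 7 and 4 to 7). Between genotypes at rest the count of 0 became 1 with normexp background correction and 2 with only probes detected on all 12 arrays, with a trended robust fit and with array weights. In stimulated cells it became 2 with scaling to spots detected on all arrays. For the interaction it became 1 with quantile normalization, scaling to spots detected on all arrays or normexp, and 2 with only probes detected on all 12 arrays or a trended robust fit. Leaving out any single array kept these 3 counts at 0. The calls for Dtx1, Notch2, Cd1d1 and Cd9 with stimulation passed under every alternative, except Dtx1 in knockout cells with median scaling (-1.34, adjusted p = 0.0724) and on slide 1 alone. Hes5 in control cells did not pass with median scaling (adjusted p = 0.0923). Maml1 in control cells did not pass under 9 alternatives, and in knockout cells Hes1 under 6 and Rbpj under 5. Maml1 in knockout cells, which the fit used here did not call, passed under 9. Of 1196 values compared, 1103 kept their direction and side of the threshold.

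Some values turned sign under an alternative. In stimulated knockout against control, Notch2 became 0.24 with quantile normalization, 0.37 with scaling to detected spots, 0.13 with normexp, 0.27 on slide 1 alone and 0.022 without both control arrays numbered 1. With median scaling, which moved the median of all features to -0.81 at rest and -0.58 in stimulated cells, Notch1 and Cd9 at rest became -0.32 and -0.58, and stimulated Dtx1, Hes5, Rbpj and Cd9 -0.51, -0.079, -0.11 and -0.50. Stimulated Maml1 became 0.13 with scaling to detected spots. Relative to the median of all features, the values under median scaling and this Maml1 value were as under the scaling used here. Resting Notch1 differed by 0.50 and stimulated Hes5 by 0.50 with median scaling, and stimulated Maml1 by -0.25 with scaling to detected spots. Notch1 with stimulation in knockout cells became -0.23 with scaling to detected spots and -0.071 on slide 1 alone, where Cd9 became -0.12 at rest and -0.058 in stimulated cells. The Cd1d1 interaction became -0.063 with quantile normalization, -0.24 with array weights and -0.19 without both control arrays numbered 1, where that of Hes1 became -0.32. The causes were not tested. With single arrays left out, the genotype difference ranged from -0.17 to 0.23 for Cd9 at rest, and in stimulated cells from -0.25 to 0.32 for Cd9, -0.21 to 0.15 for Notch2 and -0.089 to 0.18 for Dtx1. The stimulation change of Notch1 in knockout cells ranged from -0.056 to 0.25. The interaction ranged from -0.22 to 0.28 for Cd1d1, -0.28 to 0.30 for Cd9, -0.11 to 0.66 for Hes1 and -0.082 to 0.23 for Maml1.

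For knockout against control at rest and for stimulation in knockout cells, same-numbered arrays shared only a number (correlations from -0.12 to 0.39 and from 0.00 to 0.39), and 3 of 6 arrays correlated best with their own number in each. There the replicate block left the members called at 0 and moved them from 6 to 7. In the comparisons whose same-numbered arrays deviated together, the block changed no call of a member. With 3 arrays a group and 2 slides, small differences could not be resolved, and Hes1, Notch1 and Myof lay near background on some arrays.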
